A study of Mus musculus with 451 samples.

Results

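The 10 genes followed here belong to CCN signalling and the mechanosensitive YAP pathway, and were read in single tendon cells. The genes were 5 CCN proteins (Cyr61, Ctgf, Nov, Wisp1 and Wisp2), the co-activators Yap1 and Wwtr1, their DNA-binding partner Tead1, the target gene Ankrd1 and the ion channel Piezo1. They were taken by name, as 10 of the 48795 gene symbols in the deposited count table, of which 25841 had at least 1 read. The cells came from the tail tendons of 4-week-old C57BL/6 mice, 227 from wild-type (WT) animals and 224 from animals lacking Mohawk homeobox (Mkx-/-), a transcription factor of the tendon lineage. All tendons of both genotypes were digested with collagenase before the cells were caught singly in a Fluidigm C1 high-throughput chip. The Mkx-/- mice were obtained from another laboratory, and the labels name neither the allele, nor the number of animals, nor the animal or chip of a cell. Each genotype was therefore treated as 1 sample, and no difference between genotypes below has a replicate check or a test. The study asked how tendon cells change when the loss of Mkx leads to bone in tendon.

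CCN proteins are secreted proteins of the extracellular matrix that bind integrins, proteoglycans and growth factors. Ctgf (also called Ccn2) and Cyr61 (Ccn1) are classical early responses to stretch and to a stiff matrix. YAP and TAZ, the products of Yap1 and Wwtr1, enter the nucleus when the Hippo kinases are inactive or when the cytoskeleton is under tension. There they bind TEAD factors and raise the transcription of Ctgf, Cyr61 and Ankrd1. Tendon is a tissue built to carry load, and Ctgf is long known in tendon healing and in tendon progenitor cells. A transcript count gives no measure of YAP in the nucleus.

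Promoters were searched for the TEAD-binding motif, written CATTCC on one strand and GGAATG on the other. RefSeq promoters (GRCm38.p6) were matched for Cyr61, Yap1, Wwtr1, Ankrd1 and Piezo1, while Ctgf, Nov, Wisp1, Wisp2 and Tead1 had no match. In the 250 bases before the start, the motif was found on either strand in promoters of Cyr61, Yap1, Wwtr1 and Ankrd1 and was not found in that of Piezo1. It was held by 12.6% of all 32851 promoters searched in the same window. The upstream sequences of 2 target genes and of Wwtr1 are shown 5′ to 3′ along the gene, all on the minus strand, with each motif in capitals. They are chr3:145649986-145650235 for Cyr61, chr19:36119845-36120094 for Ankrd1 and chr3:57575911-57576160 for Wwtr1.
Cyr61: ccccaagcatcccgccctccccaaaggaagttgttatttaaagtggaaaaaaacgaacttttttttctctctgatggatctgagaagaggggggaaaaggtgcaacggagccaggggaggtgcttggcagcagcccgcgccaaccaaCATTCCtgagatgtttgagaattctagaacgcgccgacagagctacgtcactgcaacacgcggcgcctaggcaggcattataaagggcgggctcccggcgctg
Ankrd1: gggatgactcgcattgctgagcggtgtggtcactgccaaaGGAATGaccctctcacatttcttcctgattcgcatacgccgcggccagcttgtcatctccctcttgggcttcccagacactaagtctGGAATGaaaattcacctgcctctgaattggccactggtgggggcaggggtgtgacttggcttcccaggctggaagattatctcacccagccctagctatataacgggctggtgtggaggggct
Wwtr1: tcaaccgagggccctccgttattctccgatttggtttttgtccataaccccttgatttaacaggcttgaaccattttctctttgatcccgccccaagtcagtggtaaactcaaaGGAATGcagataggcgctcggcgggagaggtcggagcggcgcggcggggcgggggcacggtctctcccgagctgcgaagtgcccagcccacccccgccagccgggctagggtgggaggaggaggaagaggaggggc
The Cyr61 and Wwtr1 promoters each held 1 motif and the Ankrd1 promoter held 2. A match describes the letters only, and no binding was measured.

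Clustering of both genotypes together gave 3 cell states. The TPC-like cluster carried all 5 fixed markers of tendon progenitor cells (TPCs) and held 47.1% of the 227 WT cells and 44.6% (100) of the 224 Mkx-/- cells. The TC-like cluster carried all 6 tenocyte (TC) markers and held 74 WT and 80 Mkx-/- cells. Cluster 3, with 46 WT and 44 Mkx-/- cells, carried both tenoblast markers, but 2 markers were too few to give it a name. Depth was 13630536 reads in WT and 14145394 reads in Mkx-/- cells, and the median per cell ran from 36924 reads in WT cluster 3 to 82854 in WT TC-like cells. Levels are reads of a gene relative to all reads of a group, scaled as counts per 1e6 (CPM), summed over the cells of a group, with 95% exact intervals. These intervals cover counting error only, since amplified reads are not independent molecules, and they are narrower than the spread between cells. Ctgf, Nov and Wisp1 were among the clustered genes, so their levels between clusters are a description. With the member and pathway genes left out of the clustering, the log2 ratio of Mkx-/- over WT was -1.17 for Ctgf in cluster 3 and 2.95 for Nov in TC-like cells.

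Some features of the groups moved with genotype. Mkx itself stood at 33.8 CPM in WT and at 15.5 CPM in the cells labelled Mkx-/-. Since the allele is not given, reads outside a deleted part cannot be told from intact transcript. Nearly all Mkx reads lay in TC-like cells, at 70.8 CPM in WT against 30.2 CPM in Mkx-/- cells. In TPC-like cells Mkx stood at 1.14 and 0.975 CPM and in cluster 3 at 2.51 and 2.38 CPM. The counting interval of the log2 ratio included 0 in both. The widest differences of Ctgf below thus lie in states where Mkx was barely read in WT cells as well. A link between them was not tested. In TC-like cells the 6 tenocyte markers held 31.8% of the WT reads and 22.9% of the Mkx-/- reads, and both tenoblast markers together stood at 748 and 1566 CPM. Over all genes the median of the log2 ratio was 0.20 in TC-like cells and between 0.00 and 0.07 in the other comparisons. In cluster 3 the tenoblast markers stood at 1688 and 2603 CPM, the mural cell markers at 371.6 and 264.3 CPM and the chondrocyte markers at 138.4 and 74.1 CPM. The 10 genes that led cluster 3 included 7 predicted repeat-like genes, which held 4.36% of the WT and 0.879% of the Mkx-/- reads. The 8 endothelial markers stood at 86.4 CPM in WT against 10.99 CPM in Mkx-/- TC-like cells, with 1 WT well holding reads of at least 4 of them, the 8 macrophage and osteoclast markers at 95.1 and 10.6 CPM, and the 7 chondrocyte markers at 582 and 410.1 CPM with Col10a1 and Matn1 at 0. The 8 mural cell markers stood at 238.8 and 226.9 CPM. Ratios without the endothelial-rich well, without repeat-rich cells or without collagen and Sparc reads are given beside some of the results. The part of the other marker differences was not tested.

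Ctgf, the CCN protein most often used as a readout of YAP, lies on chromosome 10 at 24595442 to 24598683 (GRCm38.p6, as for all positions given here). Over all cells its level was the same in both genotypes within counting error, at 1053 CPM (1036 to 1070) in WT against 1074 CPM (1058 to 1092) in Mkx-/- cells, with a log2 ratio at 0.03 (-0.0037 to 0.06). That balance was made up of opposite differences in the cell states. In TPC-like cells the level was 1039 CPM (1012 to 1067) in WT against 1489.5 CPM (1456 to 1523) in Mkx-/- cells, 1.43-fold higher. In cluster 3 it was 988 CPM (945 to 1033) in WT against 442.04 CPM (414.1 to 471) in Mkx-/- cells, 2.24-fold lower. In TC-like cells it was 1085 CPM (1059 to 1111) in WT against 959 CPM (936 to 983) in Mkx-/- cells, 1.13-fold lower.

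The WT cells thus held Ctgf at nearly one level in the 3 states, and the Mkx-/- cells did not. Within WT the log2 ratio of cluster 3 to TPC-like cells was -0.07 (-0.15 to 0.00) and that of TC-like to TPC-like cells 0.06 (0.01 to 0.11). Within Mkx-/- the same log2 ratios were -1.75 (-1.85 to -1.65) and -0.63 (-0.68 to -0.59). The order in Mkx-/- cells was TPC-like, TC-like and cluster 3, with no overlap of the counting intervals.

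Single cells overlapped widely in every state. Ctgf per TPC-like cell ran from 0 through a median of 613 to 3983 CPM in WT and from 0 through 1005 to 7118 CPM in Mkx-/- cells, and 65 of 100 Mkx-/- cells lay above the WT median. Per cluster 3 cell it ran from 0 through 599 to 4712 CPM in WT and from 0 through 264.1 to 3461 CPM in Mkx-/- cells, and 10 of 44 Mkx-/- cells lay above the WT median. Per TC-like cell it ran from 0 through 787 to 4344 CPM in WT and from 18.3 through 621 to 4409 CPM in Mkx-/- cells. The share of cells with a read differed little. Ctgf reads were present in 91.3% of WT and 88.6% of Mkx-/- cells of cluster 3, a difference of -2.67 percentage points (-16.3 to 10.6). The size in cluster 3 depended on where the cluster was drawn. The log2 ratio was -1.16 (-1.28 to -1.05), and it was -0.56 when genes that differed over 2-fold between genotypes were left out of the clustering, -1.30 without the cell with most Ctgf reads in each genotype, and -1.27 without cells rich in repeat-like reads. The last of these settings was added after the data were seen. A predicted gene that overlaps Ctgf, Gm15270, had 20 WT and 74 Mkx-/- reads.

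**Figure D1:**
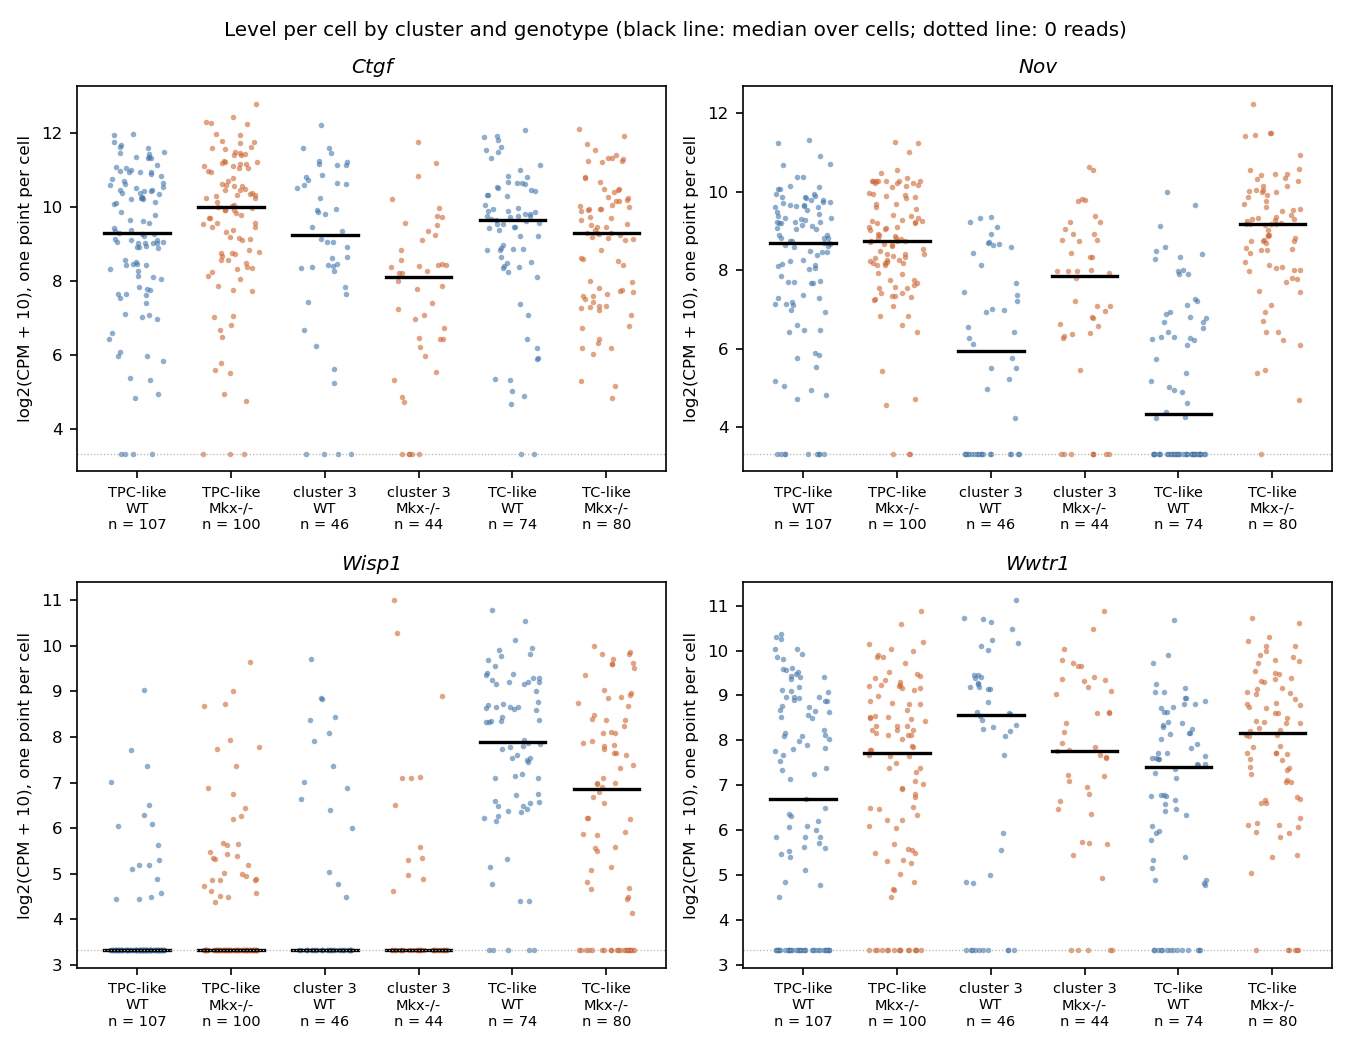
Level per cell, as log2(CPM + 10), of Ctgf, Nov, Wisp1 and Wwtr1 in WT (blue) and Mkx-/- (orange) cells of the 3 clusters, 1 point per cell, with the median as a black line and cells without a read on the dotted line. The Mkx-/- median of Ctgf lay above that of WT in TPC-like cells and below it in cluster 3, and Nov was at 0 in 35 of 74 WT but in 1 of 80 Mkx-/- TC-like cells.

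Nov (Ccn3), a CCN protein that often opposes Ctgf in matrix-producing cells, showed the widest ratio of any member within a cluster among those with at least 100 reads. It lies on chromosome 15 at 54745910 to 54753762. Over all cells it stood at 267.2 CPM (258.6 to 276.02) in WT against 645 CPM (632 to 659) in Mkx-/- cells. The difference lay mostly in cluster 3 and in TC-like cells. In TPC-like cells the levels were 511 and 568 CPM, with a log2 ratio at 0.15 (0.08 to 0.23). In cluster 3 they were 150.4 and 368.8 CPM, with a log2 ratio at 1.29 (1.10 to 1.49). In TC-like cells they were 100.6 CPM (92.95 to 108.7) and 787 CPM (766 to 808), with a log2 ratio at 2.97 (2.85 to 3.09), which is 7.82-fold. Of 8198 genes with at least 100 reads in TC-like cells, 81 had a ratio at or above that of Nov.

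The TC-like cells of both genotypes overlapped in range but lay far apart in median. Nov per cell ran from 0 through a median of 10.1 to 1012 CPM in WT and from 0 through 565 to 4857 CPM in Mkx-/- cells. The upper quartile of the Mkx-/- cells, 1004 CPM, lay below the WT maximum. Only 2 of 74 WT cells lay above the Mkx-/- median. Above the WT median, which was near 0, lay 79 of 80 Mkx-/- cells, all those with a read. Reads were present in 52.7% of WT and 98.8% of Mkx-/- cells, a difference of 46.05 percentage points (33.8 to 57.3), and in 40.8% and 95.5% after every cell was thinned to 20000 reads. One WT cell held 19.7% of the WT reads, and leaving out the top cell of both genotypes the log2 ratio was 3.21. With the median ratio of all genes set to 0 it was 2.76, and without the well rich in endothelial reads it was 2.98.

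The order of the cell states was therefore not the same in both genotypes. In WT cells Nov was highest in TPC-like cells, then cluster 3, then TC-like cells, with a TC-like to TPC-like log2 ratio of -2.35 (-2.47 to -2.22). In Mkx-/- cells TC-like cells came first, then TPC-like cells, then cluster 3, and that log2 ratio was 0.47 (0.40 to 0.54).

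Wisp1 (Ccn4), a CCN protein and target of Wnt signalling with a role in bone formation, was mainly a gene of TC-like cells. It lies on chromosome 15 at 66891369 to 66923201. Within WT its TC-like level was 21.5-fold its TPC-like level, and within Mkx-/- it was 5.42-fold. The contrast between states was smaller in Mkx-/- cells from both sides. In TC-like cells the level was 321.96 CPM (308.2 to 336.2) in WT against 211.3 CPM (200.6 to 222.4) in Mkx-/- cells, 1.52-fold lower. The log2 ratio of -0.61 passed 1.5-fold under 9 of 11 other settings and was -0.45 in cells with under 5000 genes. Per TC-like cell Wisp1 ran from 0 through a median of 228.2 to 1754 CPM in WT cells and from 0 through 105.6 to 1012 CPM in Mkx-/- cells, and 26 of 80 Mkx-/- cells lay above the WT median. In TPC-like cells it was 14.9 CPM (11.8 to 18.6) in WT against 39.01 CPM (33.8 to 44.8) in Mkx-/- cells, 2.61-fold higher.

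Unlike for Ctgf, the share of cells with a Wisp1 read moved as well. It was 93.2% of WT and 75% of Mkx-/- TC-like cells, a difference of -18.2 percentage points (-29.4 to -6.72). It was 16.8% of WT and 35% of Mkx-/- TPC-like cells, a difference of 18.2 points (6.26 to 29.6). After thinning to 20000 reads the TC-like shares were 85.5% and 63.7% and the TPC-like shares 10.9% and 23.3%. In cluster 3 the summed level was 71.2 and 105.5 CPM, with a log2 ratio at 0.57 (0.26 to 0.88), but 1 Mkx-/- cell held 31.5% of the Mkx-/- reads and the log2 ratio without the leading cells was 0.32. It passed 1.5-fold under 5 of 11 other settings, up to 0.90 without cells rich in repeat-like reads.

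Cyr61, on chromosome 3 at 145646971 to 145649985, whose promoter is printed above, differed less between genotypes than between TPC-like cells and cluster 3. In TPC-like cells it stood at 88.7 CPM (80.9 to 97.2) in WT against 88.4 CPM (80.4 to 96.9) in Mkx-/- cells, with a log2 ratio at -0.01 (-0.20 to 0.18). In TC-like cells it was 52.6 and 40.3 CPM, with a log2 ratio at -0.38 (-0.62 to -0.15). With the median ratio of all genes set to 0 that ratio was -0.59, past 1.5-fold. In cluster 3, with 29 WT and 38 Mkx-/- reads, no difference was detectable at this depth. The log2 ratio of Cyr61 there was 0.31 (-0.42 to 1.06), ranging to 1.15 and -0.75 with other genes left out of the clustering. Within WT the cluster 3 level was 6.10-fold below the TPC-like level, and within Mkx-/- it was 4.89-fold below. Its sister target Ctgf had no such difference between these states in WT cells.

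Wisp2 (Ccn5), a CCN protein that lacks the C-terminal domain of the others, lies on chromosome 2 at 163820752 to 163833146. It was read in 6 WT and 13 Mkx-/- cells only. Its 27 WT and 110 Mkx-/- reads gave a log2 ratio of 1.97 (1.36 to 2.64), but with each cell weighted equally it was 0.45, so the value rests on few cells. In TC-like cells no WT cell held a read, 0 of 74, which allows a share of up to 4.05% by a limit of 3 cells and 4.86% by the Clopper-Pearson interval, and 8 of 80 Mkx-/- cells did. The summed level was at least 20.8-fold higher in Mkx-/- TC-like cells against a limit of 3 reads for WT as a group. On the log2 scale this was 4.38, with a counting interval from 4.04, and 3.55 in cells with at least 2500 genes. Of the Mkx-/- cells 1 cell held 39.7% of the 68 reads.

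**Figure D2:**
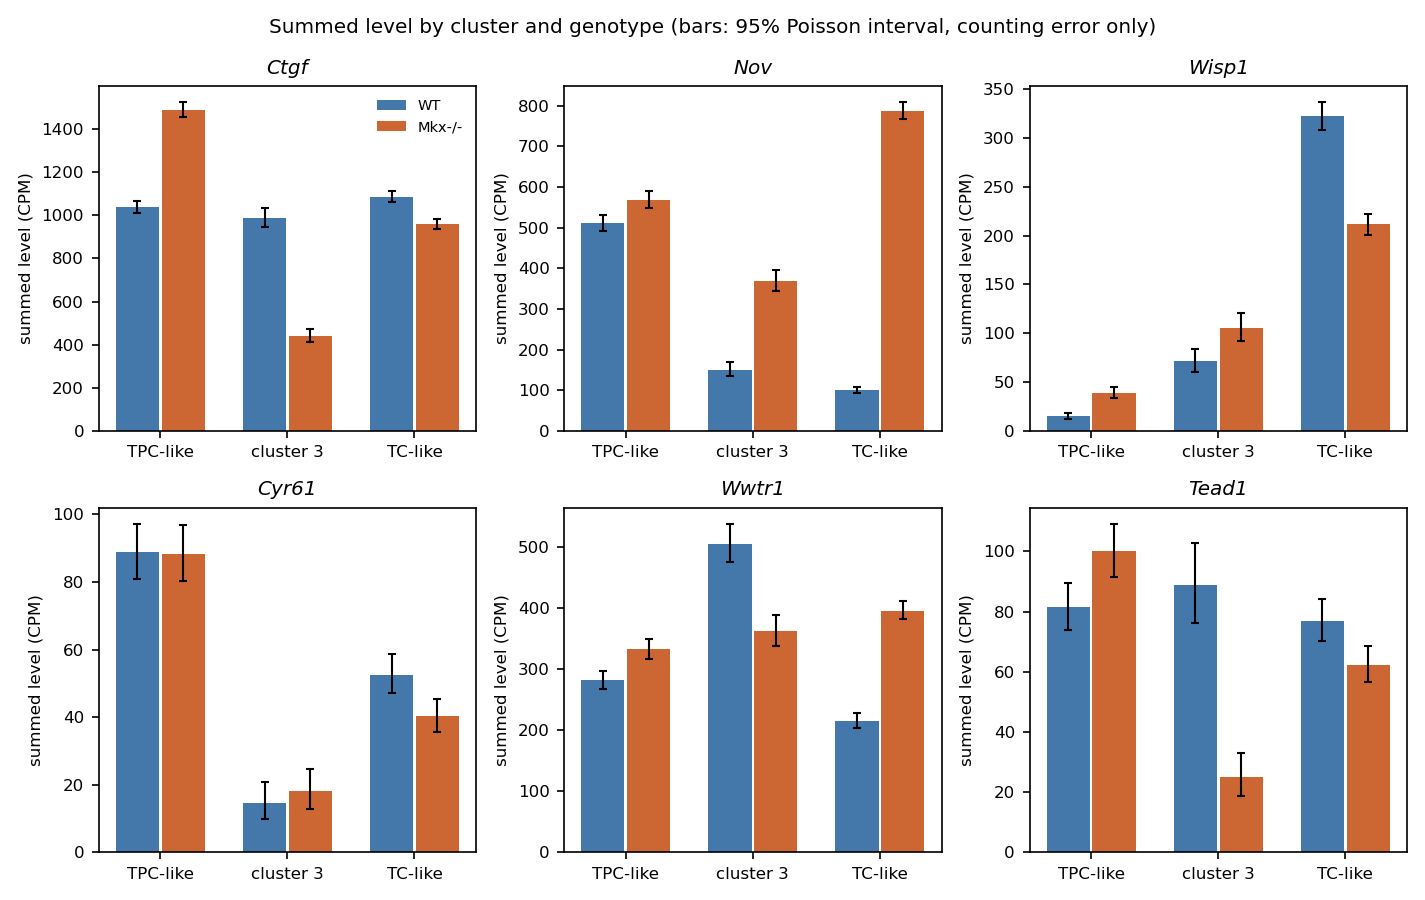
Summed level in CPM of 6 genes in the 3 clusters, WT in blue and Mkx-/- in orange, with 95% Poisson intervals as black bars that cover counting error only. Ctgf was nearly level across clusters in WT cells, and the order of the clusters for Nov was opposite in the 2 genotypes at the TPC-like and TC-like ends.

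Of both co-activators, Wwtr1 (TAZ) was read in most cells and Yap1 in a minority. Wwtr1, on chromosome 3 at 57455644 to 57575910, stood at 283.9 CPM (275.05 to 293.01) in WT against 367.96 CPM (358.04 to 378.1) in Mkx-/- cells over all states. In TC-like cells it was 215.7 CPM (204.4 to 227.4) in WT against 395.96 CPM (381.3 to 411.1) in Mkx-/- cells, with a log2 ratio at 0.88 (0.78 to 0.97), and 0.67 with the median ratio of all genes set to 0. Per TC-like cell it ran from 0 through a median of 159.6 to 1628 CPM in WT and from 0 through 276.4 to 1676 CPM in Mkx-/- cells, and 52 of 80 Mkx-/- cells lay above the WT median. In cluster 3 the direction was opposite, with 506 CPM (475 to 538) in WT against 362.7 CPM (337.4 to 389.3) in Mkx-/- cells, with a log2 ratio at -0.48 (-0.62 to -0.34). In TPC-like cells the log2 ratio was 0.24 (0.13 to 0.34). The share of cells with a read was higher in Mkx-/- in all 3 states, at 84% against 69.2% in TPC-like, 88.6% against 78.3% in cluster 3 and 92.5% against 81.1% in TC-like cells. The interval of the difference included 0 in cluster 3 only, at 10.4 percentage points (-5.40 to 25.6).

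Yap1, on chromosome 9 at 7931999 to 8004638, was read in 25.99% of WT and 27.7% of Mkx-/- cells. Its log2 ratio was -0.13 (-0.30 to 0.04) over all cells, 0.14 (-0.18 to 0.47) in TPC-like and 0.08 (-0.17 to 0.32) in TC-like cells, with 0 inside each counting interval. In cells with at least 2500 genes these were 0.41, 0.77 and 0.39, so the sign over all cells and the size in TPC-like cells depended on the cells kept. In cluster 3 the level was 95.3 CPM (82.2 to 109.8) in WT against 51.3 CPM (42.1 to 61.98) in Mkx-/- cells, with a log2 ratio at -0.89 (-1.25 to -0.54). That value moved with the cells kept, to -0.26 in cells with at least 2500 genes and to -1.68 when 10 dimensions were clustered. The share of cluster 3 cells with a Yap1 read was 30.4% in WT and 34.1% in Mkx-/-.

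Tead1, on chromosome 7 at 112679356 to 112906784, encodes the factor that carries YAP and TAZ to DNA. It moved in the same directions as Ctgf in the 3 states. In TPC-like cells it stood at 81.4 CPM (73.9 to 89.4) in WT against 100.1 CPM (91.6 to 109.1) in Mkx-/- cells, with a log2 ratio at 0.30 (0.11 to 0.49). In cluster 3 it was 88.8 CPM (76.2 to 102.8) and 25.2 CPM (18.9 to 32.95), 3.52-fold lower in Mkx-/- cells. In TC-like cells it was 76.99 and 62.3 CPM, with a log2 ratio at -0.30 (-0.49 to -0.11). In cluster 3 the log2 ratio of -1.82 rested on 53 Mkx-/- reads, and 1 WT cell held 27.1% of the WT reads, and it was -2.59 with each cell weighted equally, -1.74 without the leading cell of each genotype and -0.94 in cells with at least 2500 genes. Reads were present in 18 of 46 WT and 12 of 44 Mkx-/- cells of cluster 3, a difference of -11.9 percentage points (-29.9 to 7.50). In TPC-like cells 29.9% of WT cells and 48% of Mkx-/- cells held a read, a difference of 18.1 points (4.81 to 30.6).

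Ankrd1, a muscle-associated YAP target whose promoter with 2 motifs is printed above, was barely read. It lies on chromosome 19 at 36111965 to 36119844. It had 14 reads in 4 WT cells and 2 reads in 1 Mkx-/- cell, with a log2 ratio at -2.86 (-6.04 to -0.74), and 1 WT cell held 9 of the 14. With the cell of most reads left out in both genotypes no Mkx-/- read remained, and the log2 ratio against a limit of 3 reads was -0.79. In cluster 3 no read was found in 46 WT or 44 Mkx-/- cells, which allows shares of up to 6.52% and 6.82% by a limit of 3 cells and 7.71% and 8.04% by the Clopper-Pearson interval.

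Piezo1, a channel that opens under membrane stretch, lies on chromosome 8 at 122481698 to 122551329. It had 53 WT and 89 Mkx-/- reads, in 5.73% of WT and 9.38% of Mkx-/- cells, with a log2 ratio at 0.69 (0.19 to 1.21). In TC-like cells the log2 ratio was 0.57 (-0.03 to 1.18), so a difference was not detectable there. Ctu2 and Gm26497 overlap Piezo1 and had 26 and 91 WT reads and 8 and 23 Mkx-/- reads. Reads of such partners cannot be told apart here, since no source gives the strand of the counting.

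**Figure D3:**
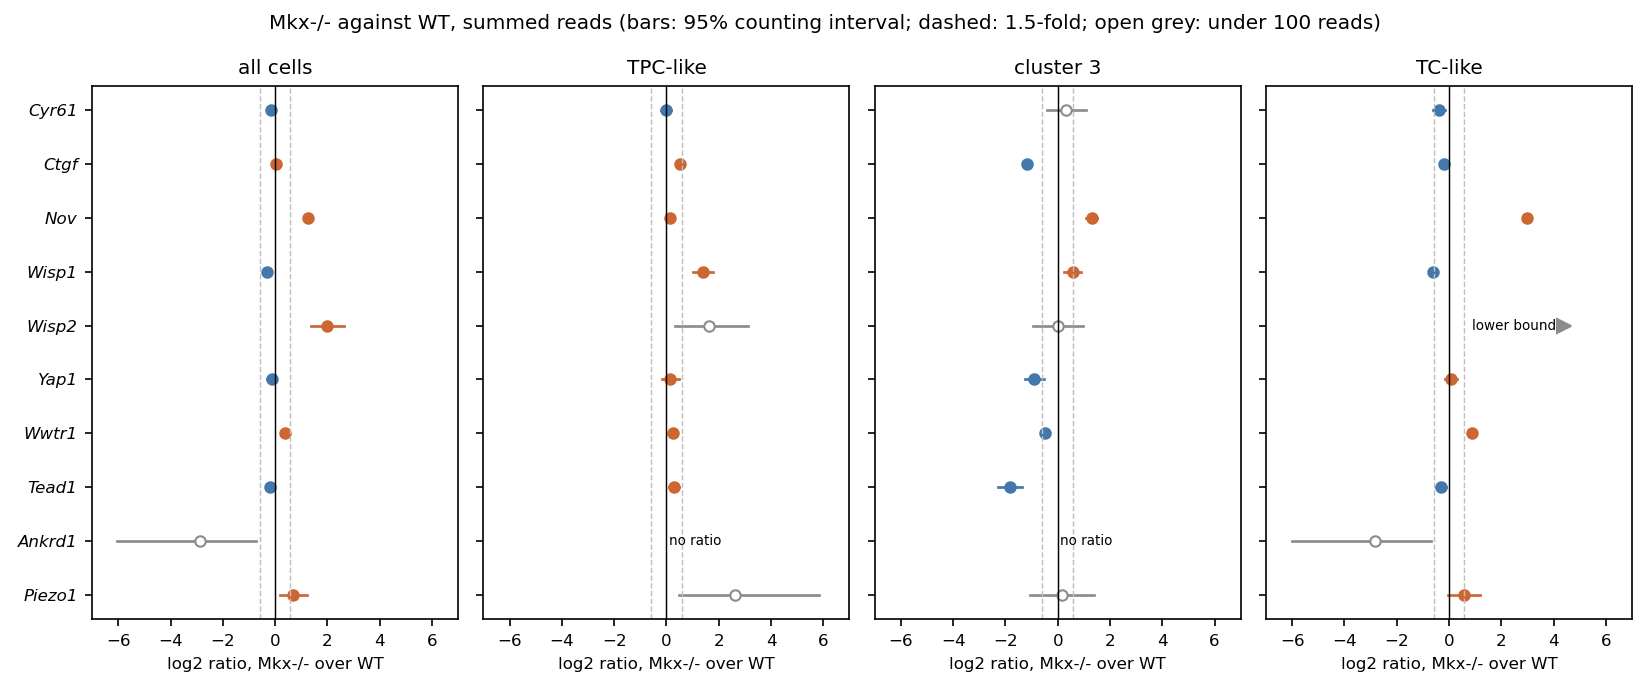
Log2 ratio of Mkx-/- to WT for each of the 10 genes over all cells and in each cluster, with 95% counting intervals as bars, the 1.5-fold limits dashed and genes with under 100 reads as open grey circles. Ctgf, Wwtr1 and Tead1 lay right of 0 in TPC-like cells and left of 0 in cluster 3, and Nov in TC-like cells lay farthest right of the filled points.

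Counts of members were read against all genes. Over all cells 9 members had at least 100 reads in both genotypes together, and Nov, Wisp2 and Piezo1 were at least 1.5-fold higher in Mkx-/- cells and 0 lower, where 16% of all such genes were higher and 13.1% lower. Wisp2 was at 0.45 with each cell weighted equally. Piezo1 passed 1.5-fold under 6 of 8 other settings and was at 0.41 in cells with under 5000 genes. In TPC-like cells 1 of 7 members, Wisp1, was higher and 0 lower, against 17.2% and 15.8% of genes. In cluster 3, 1 of 6 members, Nov, was higher and 3, Ctgf, Yap1 and Tead1, were lower, against 23% and 18.9%. Ctgf was at -0.56 and Cyr61 at -0.75 when genes differing over 2-fold were left out of the clustering, Yap1 was at -0.26 in cells with at least 2500 genes, and Wwtr1 was at -0.64 without repeat-rich cells. In TC-like cells 2 of 8 members, Nov and Wwtr1, were higher and 1, Wisp1, was lower, against 28% and 13.2%. The median log2 ratio of the counted members was 0.03 over all cells, 0.24 in TPC-like cells, -0.69 in cluster 3 and -0.05 in TC-like cells, beside 0.05, 0.00, 0.07 and 0.20 for all genes.

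The opposite directions of Ctgf were shared by other members. Ctgf, Wwtr1 and Tead1, 3 of the 6 members with enough reads in both states, were higher in Mkx-/- TPC-like cells and lower in Mkx-/- cluster 3 cells, each beyond its counting interval. Of 5476 genes with enough reads, 7.74% did so. Ctgf, Wisp1 and Tead1, 3 of 7 members, were higher in Mkx-/- TPC-like and lower in Mkx-/- TC-like cells, against 6.24% of 7404 genes. The reverse was seen in 0 members for both pairs of states, where 10.3% and 14.4% of genes showed it. Between the remaining pair, Wisp1 was higher in Mkx-/- cluster 3 and lower in Mkx-/- TC-like cells, as were 5.97% of 5443 genes, and Wwtr1 the reverse, as were 12.8%. An interval excludes 0 more easily for a gene with many reads, and the Ctgf pattern was known when the genes were chosen, so these shares are descriptions only.

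**Figure D4:**
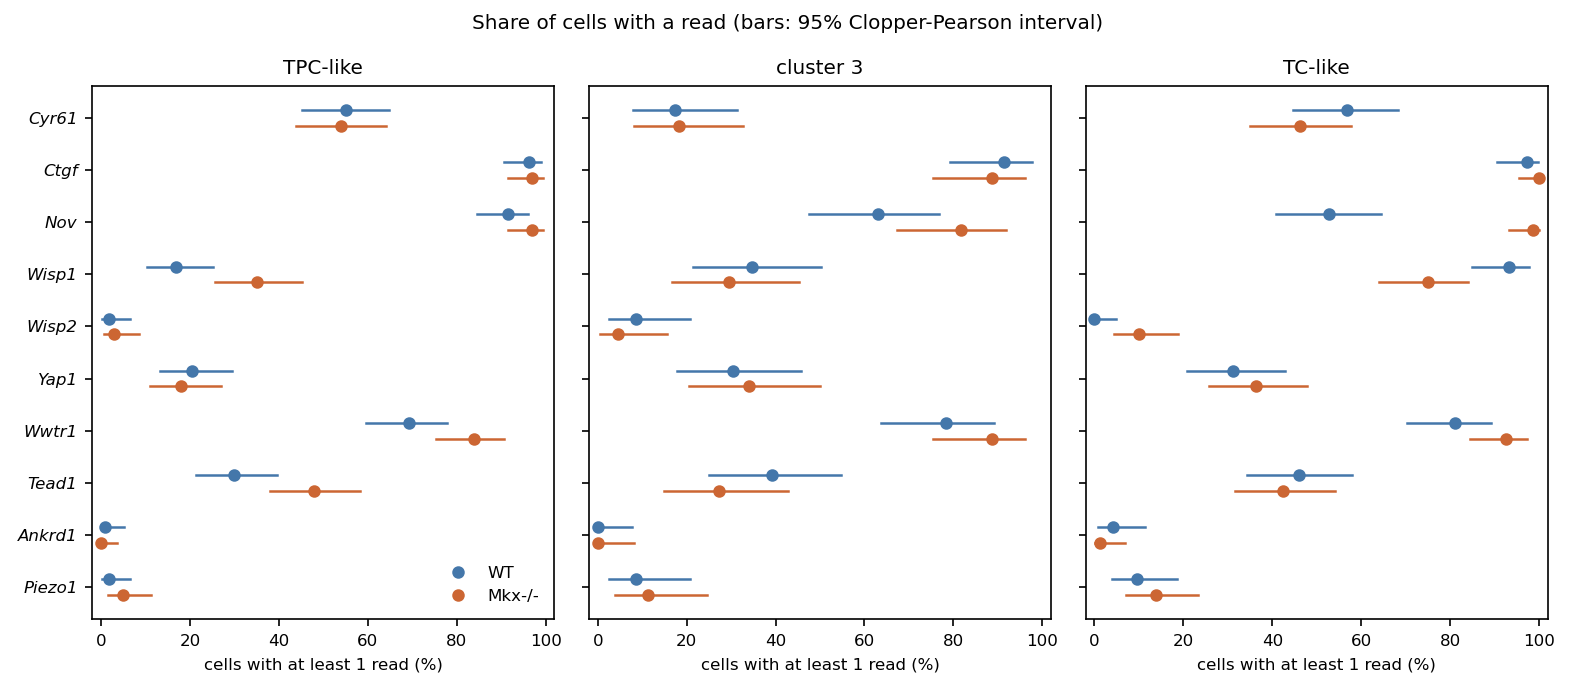
Share of cells with at least 1 read of each of the 10 genes, WT in blue and Mkx-/- in orange, with 95% Clopper-Pearson intervals. Ctgf was read in at least 88.6% of cells in every cluster, whereas Nov and Wisp1 in TC-like cells changed share in opposite directions.

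The other genes of the pathway were followed as lists. Of the 8 genes of the YAP/TAZ-TEAD core, 5 had at least 100 reads over all cells, and 0 were 1.5-fold higher or lower. Within clusters Vgll4, a repressor that competes with YAP for TEAD, resembled Ctgf in direction, at 5.49 CPM in WT against 26.9 CPM in Mkx-/- TPC-like cells and at 50.2 and 23.8 CPM in cluster 3. Vgll3, a TEAD cofactor, stood at 14.8 CPM in WT against 1.45 CPM in Mkx-/- TC-like cells, but at 22.9 against 31.4 CPM in TPC-like cells. In cluster 3, 3 of 4 counted core genes were lower in Mkx-/- cells (Yap1, Tead1 and Vgll4) and the median of the 4 was -0.98, where 18.9% of all genes were lower. The core genes under 100 reads there went both ways. Tead2 had 12 WT and 46 Mkx-/- reads, Tead4 1 and 4, Tead3 10 and 0, and Vgll3 29 and 0. Yap1 and Tead1 are members counted above, and in cluster 3 cells with at least 2500 genes they were at -0.26 and -0.94.

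Of 20 Hippo kinases and upstream inhibitors, 19 were counted over all cells, 3 higher and 4 lower in Mkx-/- cells. For this and the following lists, 16% of all genes were higher and 13.1% lower over all cells. Ptpn14, which holds YAP in the cytoplasm, was higher, at 18.9 and 38.7 CPM, with a log2 ratio at 1.03 (0.82 to 1.25). The kinase Stk4 (Mst1) was lower, at 24.9 and 13.8 CPM, and so was Mob1b, an activator of the Lats kinases, at 34.8 and 19.02 CPM. For Stk4 the log2 ratio was -1.46 (-1.88 to -1.06) in TPC-like but 0.32 (-0.13 to 0.77) in TC-like cells. Of 22 YAP target genes, which include Ctgf, Cyr61 and Ankrd1, 20 were counted, 6 higher and 3 lower, with a list median of 0.07 beside 0.05 for all genes. Nt5e (CD73) was the furthest up, at 10.9 CPM in WT against 41.2 CPM in Mkx-/- cells, with a log2 ratio at 1.92 (1.66 to 2.19). The kinase Nuak2 had a log2 ratio of -1.14 (-1.51 to -0.78). In TPC-like cells the list median was 0.11 with 3 of 16 higher and 0 lower, beside 17.2% and 15.8% of all genes there. In cluster 3 it was -0.31 with 3 of 12 higher and 4 lower, beside 23% and 18.9%. In TC-like cells it was 0.38 with 7 of 20 higher and 4 lower, beside 28% and 13.2%. The median of all genes in these states was 0.00, 0.07 and 0.20.

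Of 11 mechanosensitive channels, 7 were counted over all cells, 3 higher and 0 lower. Piezo2 stood at 6.02 CPM in WT against 12.9 CPM in Mkx-/- cells, and in TC-like cells it had 6 WT and 83 Mkx-/- reads. Pkd2 stood at 97.9 and 149.9 CPM, and Trpm7 at 46.1 and 59.5 CPM. Of 22 genes of focal adhesions and actin tension, 21 were counted, 4 higher and 3 lower. Vcl (vinculin) was at 8.14 CPM in WT against 18.7 CPM in Mkx-/- cells, while Pxn (paxillin), its partner at the same adhesions, was at 32.4 and 14.2 CPM. Srf, the factor that answers actin polymerisation, had a log2 ratio of 1.92 (1.42 to 2.45) in the TPC-like state. In TC-like cells it was 0.53 (0.05 to 1.03). That of cluster 3 was -1.22 (-2.09 to -0.41), on 42 WT and 19 Mkx-/- reads, under the minimum of 100 reads. Of 12 receptors that bind CCN proteins, 9 were counted over all cells and 0 passed 1.5-fold. Hspg2 (perlecan) and the integrin subunit Itga6 had log2 ratios of 0.36 (0.27 to 0.45) and 0.34 (0.17 to 0.51). Within TPC-like cells 2 of 9 were higher and 1 lower, beside 17.2% and 15.8% of all genes. In cluster 3 and in TC-like cells 1 of 9 was higher, beside 23% and 28% of all genes. The one in cluster 3 was the integrin subunit Itgb3, at 7.52 CPM in WT against 126.9 CPM in Mkx-/- cells. Its log2 ratio there was 4.08 (3.33 to 4.93).

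Ctgf and Cyr61 are also immediate early genes that tissue digestion can induce, so that class is given beside them. Of 22 immediate early genes 21 were counted over all cells, 0 higher and 1 lower, Socs3, an inhibitor of cytokine signalling, at 36.5 and 20.01 CPM. Fosl1 and Jund, subunits of AP-1, had log2 ratios of 0.47 (0.41 to 0.52) and 0.38 (0.02 to 0.75). The summed level of the list was 6230 CPM in WT against 5930 CPM in Mkx-/- cells. In cluster 3 it was 5600.3 and 5956 CPM, in TPC-like cells 5367 and 5421 CPM, and in TC-like cells 7146 and 6298.5 CPM. In cluster 3, 5 of 18 counted genes were higher and 1 lower, beside 23% and 18.9% of all genes. Jun had a log2 ratio of -0.94 in cluster 3, and Egr1 one of 0.62 in TPC-like cells and 0.68 in cluster 3. Both were chosen after their values were seen. Across cells, Ctgf and the summed list had Spearman correlations of -0.14, 0.09 and 0.19 in WT TPC-like, cluster 3 and TC-like cells. In Mkx-/- cells these were -0.20, -0.27 and 0.35. For Cyr61 they were 0.18, 0.17 and 0.15 in WT and 0.20, 0.01 and 0.15 in Mkx-/- cells. The part of digestion was not tested.

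**Figure D5:**
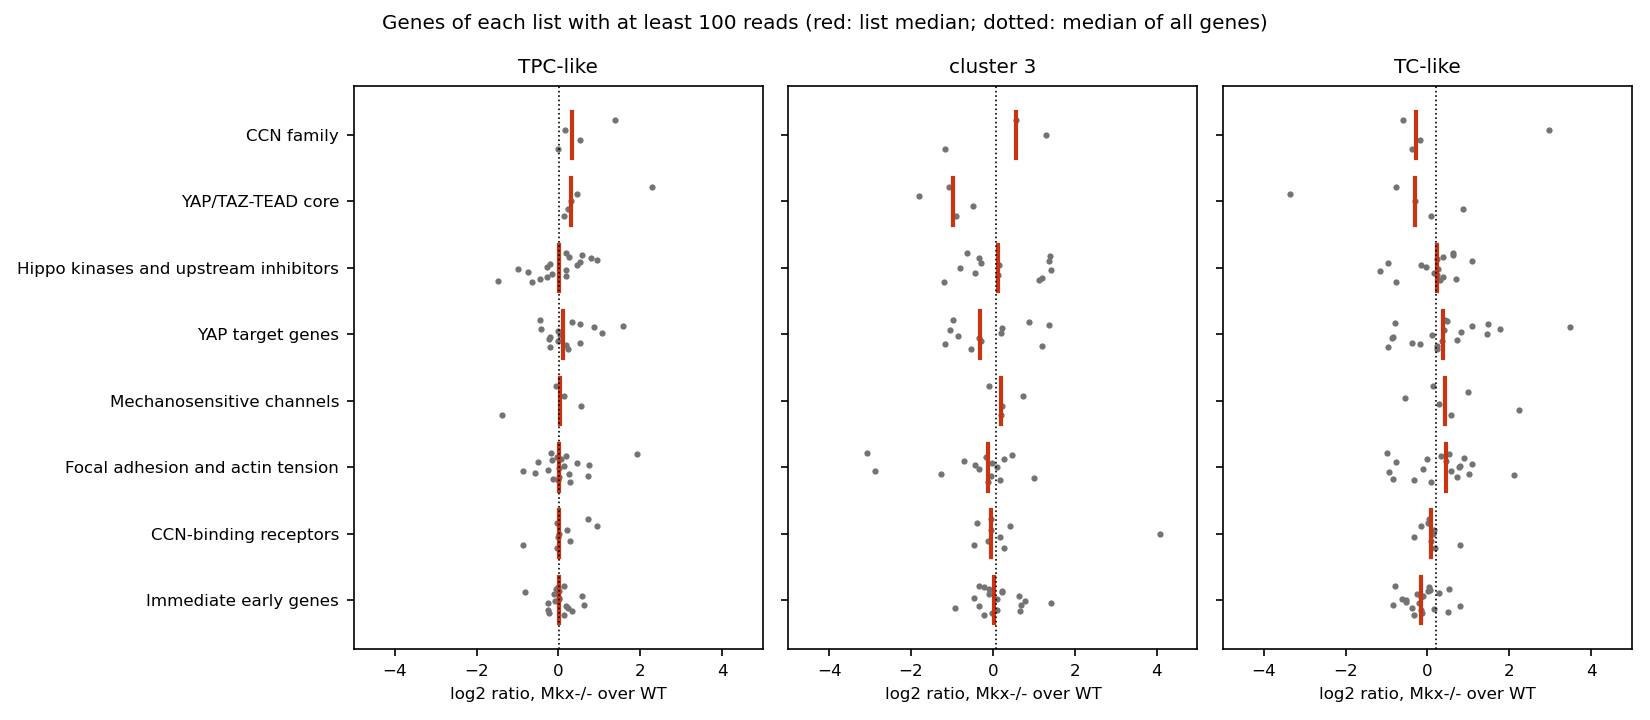
Log2 ratio of Mkx-/- to WT of each gene with at least 100 reads (grey points) in 8 lists and 3 clusters, with the list median in red and the median of all genes dotted. The counted genes of the YAP/TAZ-TEAD core lay left of 0 in cluster 3 with a median of -0.98, and the YAP target genes spread to both sides in every cluster.

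Over all cells of a genotype, members barely varied together from cell to cell. Spearman correlations of CPM were formed for the 15 pairs of the 6 members read in at least 30% of cells. They ran from -0.38 to 0.13 over the 227 WT cells and from -0.05 to 0.20 over the 224 Mkx-/- cells, and 14 and 15 of the 15 pairs lay within 0.2 of 0. Ctgf and Cyr61, both YAP targets, had a correlation of -0.02 in WT and 0.16 in Mkx-/- cells. Ctgf and Wwtr1 had 0.09 and 0.05. The single wider value was that of Nov and Wisp1 in WT cells, -0.38, against 0.16 in Mkx-/- cells. Within the WT clusters it was 0.14 (TPC-like), -0.17 (cluster 3) and -0.10 (TC-like). The points share library depth, and Wisp1 correlated with total reads at 0.39 in WT and 0.37 in Mkx-/- cells. Within TPC-like, cluster 3 and TC-like cells that correlation was 0.13, -0.03 and -0.17 in WT and 0.12, 0.25 and 0.22 in Mkx-/- cells. In cluster 3 the pairs ran from -0.23 to 0.34 over 46 WT cells and from -0.15 to 0.48 over 44 Mkx-/- cells, where the highest was Ctgf with Cyr61. That pair had 0.57 over the 30 of these cells with at least 30000 reads, and Cyr61 was read in 8 of the 44. Within 0.2 of 0 lay 15, 9 and 15 pairs in WT TPC-like, cluster 3 and TC-like cells. In Mkx-/- cells these numbers were 14, 13 and 12. Values this low in sparse counts are given as a description.

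Likeness across cells was ranked over the other 1729 genes read in at least 50% of cells of both genotypes, by the lower of the WT and Mkx-/- correlations. For Nov the first were Thy1 (0.31 and 0.31), Pmp22 (0.28 and 0.25), Wls, S100a4 and Prelp. For Ctgf they were Prelp (0.19 and 0.25), Fbn1 (0.18 and 0.32), Gm12497, Col14a1 and Chp1. For Wwtr1 they were Neat1 (0.20 and 0.20), Bag3 (0.24 and 0.18), Pitpna, Map4k4 and Ncl.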

How the data were processed

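Single cells of WT and Mkx-/- tail tendon were caught on a Fluidigm C1 chip, and the authors deposited raw read counts as 1 table of genes by cells. Their methods name AfterQC for read quality, trimming at the 3′ end, Bowtie2 for alignment and featureCounts for counting. The methods name the mm9 build and the submitters' processing notes name mm10. The counts carry no coordinates, so this could not be settled, and positions and promoters are from RefSeq on GRCm38.p6. Strand and the handling of reads with several positions are not stated. The table held fewer cells than the study states to have passed its quality control, and no cell had under 1801 detected genes. No cell was removed here, no doublet caller was run, no 2 cells had identical counts, and 0 columns were left unused.

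Counts were summed over cells and divided by all reads (CPM). Ratios of Mkx-/- to WT have exact conditional binomial intervals, levels exact Poisson and shares Clopper-Pearson intervals, all at 95%, and differences of shares have Newcombe intervals. No count model was fitted, since each genotype was 1 sample. Where a sum was 0, 3 reads took its place for a bound, and no ratio was formed with both sums at or under 3. A gene was counted with at least 100 reads and called at 1.5-fold. Clustering used Seurat 5.3.0 (R 4.3.3) with canonical correlation anchors on 1693 genes, 4 dimensions and resolution 0.4, where the study used an older alignment, so a cluster here may differ in its cells from theirs. Ctgf, Nov and Wisp1 were among the clustered genes. The markers were Cd44, Thy1, Ly6a, Fstl1 and Tppp3 (TPC), Itm2a and Lgals3 (tenoblast) and Col11a2, Col1a1, Col1a2, Sparc, Tnmd and Fmod (TC). Other statistics used Python 3.11.15 with scipy 1.17.1, and the functions were tested on simulated data.

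The members, lists and settings were chosen with earlier results of these data known. All 10 members were named throughout, with up to 3 genes per pathway list with the widest ratio over all cells among those with at least 100 reads, the 5 genes most correlated with each member read in at least 50% of cells, and Mkx. Of the genes so named in the pathway lists, 1 is not reported here, and markers of other cell types are given as summed levels. Where a sum or share was 0, a limit of 3 is given.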

Additional observations from a re-analysis of the deposited data

Results flagged for a closer look

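For Ctgf, Wisp1, Wwtr1 and Tead1 the difference between genotypes had opposite signs in different cell states, beyond the counting intervals, which cover counting error only. None of these differences between states was tested, since each genotype was 1 sample, and the Ctgf pattern was known when the genes were chosen. Of 5476 genes, 7.74% were higher in Mkx-/- TPC-like and lower in Mkx-/- cluster 3 cells, and 10.3% the reverse. From TPC-like to TC-like cells these shares were 6.24% and 14.4%, and from cluster 3 to TC-like cells 5.97% and 12.8%. The log2 ratio of Mkx-/- over WT for Ctgf was 0.52 in TPC-like cells, -1.16 in cluster 3 and -0.18 in TC-like cells. For Wisp1 it was 1.38 in TPC-like cells, 0.57 in cluster 3 and -0.61 in TC-like cells. For Wwtr1 it was 0.24 in TPC-like cells, -0.48 in cluster 3 and 0.88 in TC-like cells. For Tead1 it was 0.30 in TPC-like cells, -1.82 in cluster 3 and -0.30 in TC-like cells. Only Wisp1 passed 1.5-fold in both directions. Ctgf and Tead1 passed it in cluster 3 only, and Wwtr1 in TC-like cells only.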

How the results depend on the processing

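No paired analysis was possible because the numbers in the labels only name cells and no number is shared between genotypes. Of the log2 ratios of members recomputed under other settings, 63 lay outside the counting interval of the reported value and 0 turned the sign of a value past 1.5-fold. With each cell weighted equally, Ctgf in TPC-like cells was 0.47 and 1 member was higher over all cells. Without collagen and Sparc reads in the total, Ctgf was -0.030 over all cells and -0.36 in TC-like cells, and Nov in TC-like cells was 2.79. With median-of-ratios scaling these were -0.026, -0.38 and 2.76, and 2 members (Cyr61 beside Wisp1) were lower in TC-like cells. Without the leading cell of each genotype, Ctgf was 0.46 in TPC-like cells and -1.30 in cluster 3, and Nov in TC-like cells was 3.21. In cells with at least 2500 genes, Ctgf was -0.99 in cluster 3 and -0.26 in TC-like cells, and Nov in TC-like cells was 2.85. With these cells 2 members (Yap1 beside Wisp1) were higher in TPC-like cells, and in cluster 3 2 were higher and 2 lower. In TC-like cells 0 were then lower, with Wisp1 under 1.5-fold. In cells with under 5000 genes, Ctgf was -0.027 over all cells and -0.33 in TC-like cells, and 2 members were higher in cluster 3. Without cells rich in repeat-like reads, a setting added after the data were seen, 2 were higher there and 4 lower. Clustered in 10 dimensions, Ctgf was 0.40 in TPC-like cells and -0.86 in cluster 3, and clustered without genes differing 2-fold it was 0.47 and -0.56. In both, and without the member and pathway genes, 2 members were higher in cluster 3. The causes were not tested. Depth limits Wisp2, Ankrd1 and Piezo1, and Cyr61 in cluster 3.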
